A study of Mus musculus with 10 samples.

Results

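The 10 genes described here are expressed in fibroblasts of the adventitia, the connective tissue sheath around vessels and ducts, though not only there. The genes are Dpt, Sparc, Mfap5, Clec3b, Cd34, Pdgfra, Pi16, Abca9, Abca8a and Abca6. They were taken by symbol from 19938 genes named on whole-transcript arrays of mouse prostate. Each had 1 probe set with a single symbol, and its log2 value is reported as deposited. Of the 10, 9 were among the 14953 genes tested, and Abca6 lay below the limit of 6.55 log2 units that set aside the 25% of genes with the lowest mean. The arrays hold RNA of prostates from 10 males of the TRAMP line, each on an array of its own. Both groups carry a viral T antigen driven in prostate epithelium by the promoter of the probasin gene (Pbsn) and are a tumour model, so no prostate without the transgene is among them. From 8 to 9 weeks of age 5 mice received 250 µg/ml of nicotine, supplied as the tartrate salt, in tap water and 5 received tap water alone, and the sources used here do not state the age at collection. The genes were chosen with the nicotine contrast of these arrays already known, so their differences are given as a description without a test.

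Adventitial fibroblasts lay down the loose matrix around vessels and glands, and in mouse tissues they are recognised by Pi16, Cd34, Pdgfra and Dpt. The matrix genes of the group encode secreted proteins that bind collagen or elastic microfibrils, the surface genes encode a growth factor receptor and a sialomucin, and the ABCA genes encode membrane proteins of a lipid transporter family. Cd34 is also made by endothelial cells, and Sparc by many stromal and endothelial cells. In RNA of whole tissue, fewer fibroblasts and less RNA of a gene per fibroblast cannot be told apart.

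RefSeq promoters (assembly GRCm38.p6, 250 bases before to 50 after the annotated start) were at hand for 7 of the 10 genes. The 4 shown first belong to the genes whose nicotine and water values did not overlap, and the last belongs to Abca5, the transporter gene next to the Abca9 cluster. Letters run 5′ to 3′ on the strand of the gene, and capitals mark motif matches on either strand. The motifs were the TATA box, spelled TATAAA, and the CCAAT box as named. A GC box was read as GGGCGG. For the AP-1 site the letters were TGANTCA. The E-box of the kind bound by the fibroblast factor TCF21 was searched as CAGCTG. A CArG box, the site of serum response factor, was searched as CCWWWWWWGG, where W is A or T.
Dpt promoter, chr1:164796413-164796712, plus strand: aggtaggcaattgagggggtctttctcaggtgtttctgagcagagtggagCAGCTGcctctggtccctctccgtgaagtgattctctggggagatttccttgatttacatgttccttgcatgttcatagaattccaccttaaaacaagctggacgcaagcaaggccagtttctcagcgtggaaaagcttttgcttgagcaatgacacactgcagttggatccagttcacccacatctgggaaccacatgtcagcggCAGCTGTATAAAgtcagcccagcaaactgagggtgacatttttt
Cd34 promoter, chr1:194938571-194938870, plus strand: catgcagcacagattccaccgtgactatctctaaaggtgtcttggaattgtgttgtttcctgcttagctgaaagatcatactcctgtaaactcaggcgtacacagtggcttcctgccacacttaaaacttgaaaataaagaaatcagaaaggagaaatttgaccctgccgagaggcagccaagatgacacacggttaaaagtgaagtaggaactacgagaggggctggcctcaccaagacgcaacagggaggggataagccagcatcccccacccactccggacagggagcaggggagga
Pdgfra promoter, chr5:75152001-75152300, plus strand: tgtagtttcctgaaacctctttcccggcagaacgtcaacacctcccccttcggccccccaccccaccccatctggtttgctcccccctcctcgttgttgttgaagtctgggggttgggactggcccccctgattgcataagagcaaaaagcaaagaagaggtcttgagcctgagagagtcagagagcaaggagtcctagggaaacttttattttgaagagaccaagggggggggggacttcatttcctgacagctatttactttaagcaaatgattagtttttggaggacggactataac
Abca9 promoter, chr11:110168104-110168403, minus strand: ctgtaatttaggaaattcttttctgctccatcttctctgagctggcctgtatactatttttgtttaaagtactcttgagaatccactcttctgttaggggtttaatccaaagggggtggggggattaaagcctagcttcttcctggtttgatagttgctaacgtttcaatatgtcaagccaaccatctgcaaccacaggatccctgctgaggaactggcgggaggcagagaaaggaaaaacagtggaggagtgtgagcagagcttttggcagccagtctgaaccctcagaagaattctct
Abca5 promoter, chr11:110337667-110337966, minus strand: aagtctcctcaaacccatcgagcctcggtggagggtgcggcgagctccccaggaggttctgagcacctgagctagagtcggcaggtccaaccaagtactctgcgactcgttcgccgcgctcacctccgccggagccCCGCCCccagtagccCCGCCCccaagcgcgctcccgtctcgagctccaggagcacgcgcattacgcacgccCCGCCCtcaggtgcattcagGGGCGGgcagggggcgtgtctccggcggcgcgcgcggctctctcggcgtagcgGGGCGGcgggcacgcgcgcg
The Dpt window held 2 CAGCTG motifs, the second directly followed, without overlap, by the TATAAA match, which lies after the annotated start. The Cd34, Pdgfra and Abca9 windows held none of these motifs, and neither did that of Abca8a. The CAGCTG motif stood in 3 of the 7 windows (Dpt, Pi16 and Sparc), against 16.3% of 32851 windows of the same length in the table. The GC box stood in 0 of the 7 and in 35.7% of all windows, while the Abca5 window held 5. CCAAT stood in 1 of the 7, that of Pi16 (37.4% of all), TATAAA in 1 (13.6%), and the AP-1 and CArG motifs in 0 (7.81% and 1.63%). GC content ran from 44.3% to 55.3% in the 7 windows and was 72.3% in Abca5, around a median of 52.7%. These matches are letters in a window and were not tested as binding sites.

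Nicotine mice 3 and 1 were unlike the other mice. Their arrays correlated with the others at a median r of 0.654 and 0.880, whereas the other 8 correlated with each other at 0.980 to 0.993. Luminal secretory markers, the defining genes of the labelled tissue, had a list mean of 6.95 in nicotine 3, 10.86 in nicotine 1 and 11.60 to 11.88 in water mice. The neuroendocrine list mean was 9.54 in nicotine 3, 8.89 in nicotine 1 and 6.46 to 7.04 in water mice. The difference of each of the 10 genes is therefore given with and without nicotine 1 and 3. Fits with a covariate or array weights are given with all mice only. Over all tested genes, limma called 0 of 14953 at an adjusted p of 0.05 in either direction (0% lower, 0% higher), with 1514 genes at an unadjusted p under 0.05. With array weights, which count arrays that deviate for less, limma called 4.49% of genes lower and 2.84% higher.

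All 10 genes had a lower mean in nicotine mice. Averaged over the 10 genes, the level was 8.48, 8.09, 7.72, 8.30 and 8.47 log2 units in nicotine mice 1 to 5, against 8.94, 8.71, 8.74, 8.72 and 8.62 in water mice 1 to 5. The highest nicotine mouse lay below the lowest water mouse. The mean difference, nicotine minus water, was -0.54 log2 units, a fold of 0.690, and -0.46 without nicotine 1 and 3. The median difference over the 9 tested genes was -0.57, beside 0.00 over all 14953 tested genes, of which 49.3% had a negative difference. In 4 genes (Dpt, Cd34, Abca9 and Pdgfra) all 5 nicotine values lay below all 5 water values, which 2.88% of tested genes showed in this direction and 2.02% in the other. Without nicotine 1 and 3 it was 6 of the 9, with Sparc and Clec3b added, beside 6.47% of tested genes lower and 4.12% higher. The genes were picked from this contrast, so nothing is read from these counts. Nicotine values were more spread than water values in 9 of the 10 genes with all mice and in 6 of the 10 without nicotine 1 and 3. Over all genes the median SD was 0.261 log2 units in nicotine mice and 0.0969 in water mice.

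**Figure D1:**
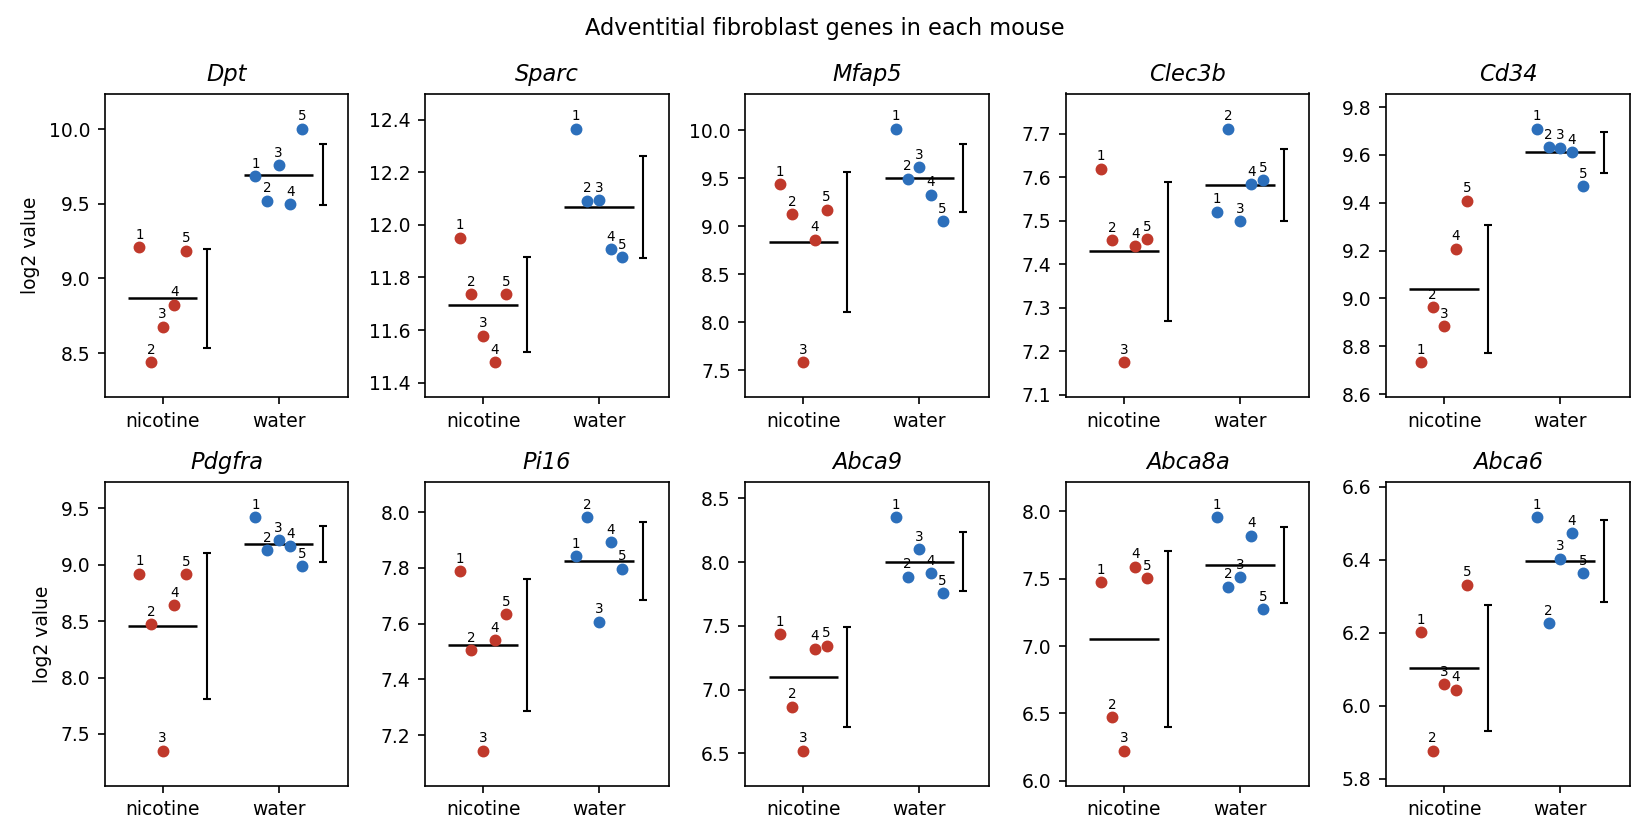
Log2 value (vertical axis, its range differs by panel) of each of the 10 genes in 5 nicotine mice (red) and 5 water mice (blue); numbers are mouse numbers, lines are means and bars are SD. Dpt, Cd34, Pdgfra and Abca9 have no overlap between groups, and nicotine 3 is the lowest of all mice in 6 genes.

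Among the secreted matrix genes, Dpt had the largest difference. Dpt encodes dermatopontin, a small matrix protein that binds decorin and takes part in collagen fibril assembly. Its values were 9.21, 8.44, 8.68, 8.82 and 9.19 in nicotine mice 1 to 5, against 9.69, 9.52, 9.76, 9.50 and 10.003 in water mice 1 to 5. Nicotine 2 and 3 were lowest and water 5 highest, with a gap between the groups, and the nicotine mouse nearest to water was nicotine 1. The means were 8.87 ± 0.33 in nicotine mice and 9.69 ± 0.21 in water mice (SD, n = 5 each), a log2 difference of -0.83 ± 0.16 (SE) and a fold of 0.564. Without nicotine 1 and 3 the difference was -0.88 ± 0.16, slightly larger in size than with all mice.

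Sparc encodes a calcium-binding matricellular protein that binds collagen. Its values were 11.95, 11.74, 11.58, 11.48 and 11.74 in nicotine mice 1 to 5, against 12.37, 12.09, 12.09, 11.91 and 11.88 in water mice 1 to 5. Only nicotine 1 reached into the water range, above water 4 and 5, and nicotine 4 was the lowest mouse. The difference was -0.37 ± 0.12 (SE), a fold of 0.773, and -0.42 ± 0.11 without nicotine 1 and 3, when the groups no longer overlapped.

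Mfap5 encodes a glycoprotein of elastic microfibrils. Its values were 9.44, 9.12, 7.59, 8.86 and 9.17 in nicotine mice 1 to 5, against 10.02, 9.49, 9.62, 9.33 and 9.05 in water mice 1 to 5. Nicotine 3 was far below the rest, but nicotine 1, 2 and 5 lay within the water range, whose own ends were water 5 and water 1. The difference of -0.67 ± 0.33 (SE) became -0.45 ± 0.18 without nicotine 1 and 3 and -0.35 ± 0.19 without nicotine 3 alone.

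Clec3b encodes tetranectin, a secreted protein that binds plasminogen. Its values were 7.62, 7.45, 7.17, 7.44 and 7.46 in nicotine mice 1 to 5, against 7.52, 7.71, 7.498, 7.58 and 7.59 in water mice 1 to 5. The groups overlapped through nicotine 1, which was second highest of all 10 mice, and the other nicotine mice were below every water mouse by small margins. The difference was the smallest of the group, -0.15 ± 0.09 (SE), and -0.13 ± 0.06 without nicotine 1 and 3. Without nicotine 3 alone it was -0.09 ± 0.06.

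Among the surface genes, Cd34 encodes a sialomucin of fibroblasts, endothelium and blood progenitors. Its values were 8.73, 8.96, 8.88, 9.21 and 9.41 in nicotine mice 1 to 5, against 9.71, 9.63, 9.63, 9.61 and 9.47 in water mice 1 to 5. The 5 water mice were close together, and every nicotine mouse lay below them, nicotine 1 furthest and nicotine 5 nearest. The means were 9.04 ± 0.27 in nicotine mice and 9.61 ± 0.09 in water mice (SD, n = 5 each), a difference of -0.57 ± 0.12 (SE) and a fold of 0.673, or -0.42 ± 0.09 without nicotine 1 and 3. Nicotine 1, the lowest mouse for Cd34, was the highest nicotine mouse for 7 of the other genes.

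Since Cd34 is also endothelial, 18 endothelial markers were examined. Their list mean ran from 7.62 to 8.13 in nicotine mice and 7.81 to 7.98 in water mice, and nicotine 1, lowest for Cd34, had the highest endothelial mean of all mice. Of 18 tested endothelial genes 13 had a negative difference, 0 passed the test, and the median was -0.09 with 10 mice and -0.14 without nicotine 1 and 3. The members with the smallest p were the vascular phosphatase gene Ptprb (-0.34 ± 0.11), the angiopoietin receptor gene Tek (-0.36 ± 0.12) and Emcn (-0.21 ± 0.12), with SEs from the limma fit. Leaving out nicotine 1 and 3, Ptprb was at -0.39 ± 0.09, Tek at -0.31 ± 0.09 and Emcn at -0.18 ± 0.13. The part of endothelial RNA in the Cd34 difference was not tested.

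Pdgfra encodes the alpha receptor for platelet-derived growth factor and is used to identify fibroblasts. Its values were 8.92, 8.48, 7.35, 8.64 and 8.92 in nicotine mice 1 to 5, against 9.42, 9.13, 9.22, 9.16 and 8.99 in water mice 1 to 5. Nicotine 3 was more than a log2 unit below any other mouse, and nicotine 1 and 5 lay just under water 5. The difference was -0.72 ± 0.27 (SE), a fold of 0.605. Without nicotine 1 and 3 it was -0.51 ± 0.11, and the groups still did not overlap. Without nicotine 3 alone it was -0.45 ± 0.12.

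Pi16 encodes a secreted or membrane-anchored protein of the CAP superfamily and marks the adventitial fibroblast state in mouse tissues. Its values were 7.79, 7.51, 7.15, 7.54 and 7.64 in nicotine mice 1 to 5, against 7.84, 7.98, 7.61, 7.89 and 7.80 in water mice 1 to 5. The groups overlapped: nicotine 1 and 5 lay above water 3. The difference was -0.30 ± 0.12 (SE), and -0.26 ± 0.08 without nicotine 1 and 3.

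The 3 ABCA genes belong to a family of membrane proteins that move lipids. Abca9 had the largest difference of all 10 genes. Its values were 7.44, 6.87, 6.52, 7.32 and 7.35 in nicotine mice 1 to 5, against 8.35, 7.89, 8.10, 7.91 and 7.76 in water mice 1 to 5. Every nicotine mouse was below every water mouse, with nicotine 3 and 2 lowest. The means were 7.10 ± 0.39 in nicotine mice and 8.00 ± 0.23 in water mice (SD, n = 5 each), a difference of -0.90 ± 0.19 (SE) and a fold of 0.535, or -0.82 ± 0.14 without nicotine 1 and 3.

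Abca8a values were 7.47, 6.47, 6.22, 7.59 and 7.504 in nicotine mice 1 to 5, against 7.96, 7.44, 7.51, 7.82 and 7.27 in water mice 1 to 5. Nicotine 2 and 3 lay below all water mice and the other 3 nicotine mice inside the water range. The difference was -0.55 ± 0.29 (SE), and -0.41 ± 0.24 without nicotine 1 and 3, when nicotine 2 was the 1 nicotine mouse below the water range. Without nicotine 3 alone it was -0.34 ± 0.24.

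Abca6 values were 6.20, 5.88, 6.06, 6.04 and 6.33 in nicotine mice 1 to 5, against 6.52, 6.23, 6.40, 6.47 and 6.36 in water mice 1 to 5. Nicotine 5 was above water 2 and the other nicotine mice were below all water mice. The difference was -0.29 ± 0.09 (SE) from a fit without the filter, and -0.31 ± 0.10 without nicotine 1 and 3.

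In GRCm38.p6 these 3 genes stand side by side as Abca8a, Abca9 and Abca6, flanked by Abca8b and Abca5, and are close paralogs, so probes may share signal. Abca5 values were 9.89, 10.83, 9.85, 10.92 and 10.94 in nicotine mice 1 to 5, against 11.10, 11.17, 11.25, 11.19 and 11.13 in water mice 1 to 5. Its groups did not overlap, but here nicotine 1 and 3 were the low mice, and the difference of -0.68 ± 0.23 (SE, adjusted p = 0.458 by limma) became -0.27 ± 0.05 without them. Abca8b, below the filter, had values of 6.08, 5.70, 7.03, 6.07 and 5.77 in nicotine mice 1 to 5, against 6.36, 6.32, 5.9996, 6.33 and 5.88 in water mice 1 to 5. Nicotine 3, the lowest mouse for Abca8a and Abca9, was the highest for Abca8b.

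**Figure D2:**
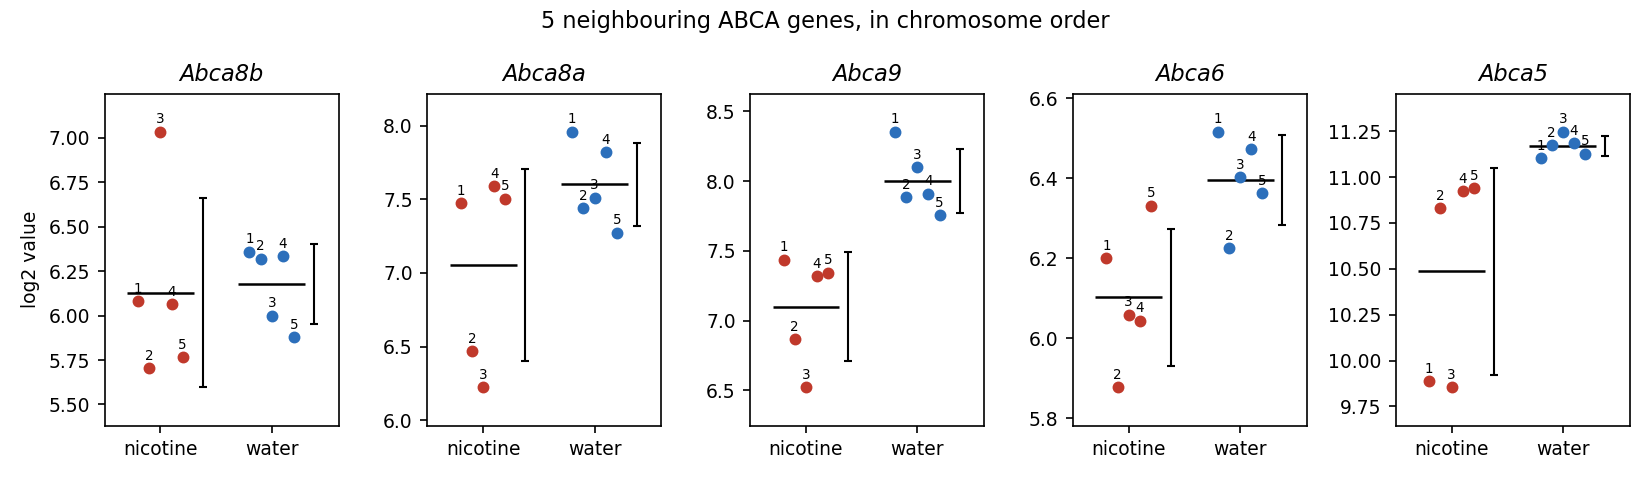
Log2 value (vertical axis, range differs by panel) of 5 neighbouring ABCA genes in chromosome order, nicotine mice in red left of water mice in blue, with mouse numbers, mean lines and SD bars. Nicotine 2 and 3 are low in Abca8a and Abca9, nicotine 1 and 3 are low in Abca5, and nicotine 3 is high in Abca8b.

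Of the 13 other ABCA genes, 5 passed the filter and 0 passed the test. Their median difference was -0.13 with 10 mice and -0.01 without nicotine 1 and 3, with 3 negative in each. The cholesterol exporter gene Abca1 had a difference of -0.51 ± 0.30 (SE), and -0.31 ± 0.11 without nicotine 1 and 3. Abca2 differed by 0.17 ± 0.14, Abca3 by -0.13 ± 0.19 and Abca7 by 0.40 ± 0.23. Without nicotine 1 and 3 the signs of Abca2 (-0.01 ± 0.09) and Abca3 (0.06 ± 0.08) turned, and Abca7 was at 0.09 ± 0.08. The 8 below the filter, Abca4, Abca8b and Abca12 to Abca17, had differences between -0.05 and 0.13 with 10 mice and between -0.33 and 0.18 without nicotine 1 and 3.

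The mice differed in which genes were low. Nicotine 3 was below every water mouse in all 10 genes, nicotine 2 and nicotine 4 in 9 each, nicotine 5 in 6 and nicotine 1 in 5. The lowest of all 10 mice was nicotine 3 in 6 genes, nicotine 2 in 2 (Dpt and Abca6), nicotine 1 in 1 (Cd34) and nicotine 4 in 1 (Sparc). The highest was water 1 in 7 genes, water 2 in 2 (Pi16 and Clec3b) and water 5 in 1 (Dpt). Among water mice, water 5 was the lowest in 6 genes while being the highest in Dpt. Over the 45 pairs of genes, Pearson's r across the 10 arrays ran from 0.41 (Abca6 with Clec3b) to 0.96 (Pdgfra with Mfap5), with a median of 0.73. Across the 8 arrays without nicotine 1 and 3 it ran from 0.20 (Abca8a with Clec3b) to 0.98 (Cd34 with Pdgfra), with a median of 0.72. These values include the group difference that all 10 genes share and describe the arrays only.

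**Figure D3:**
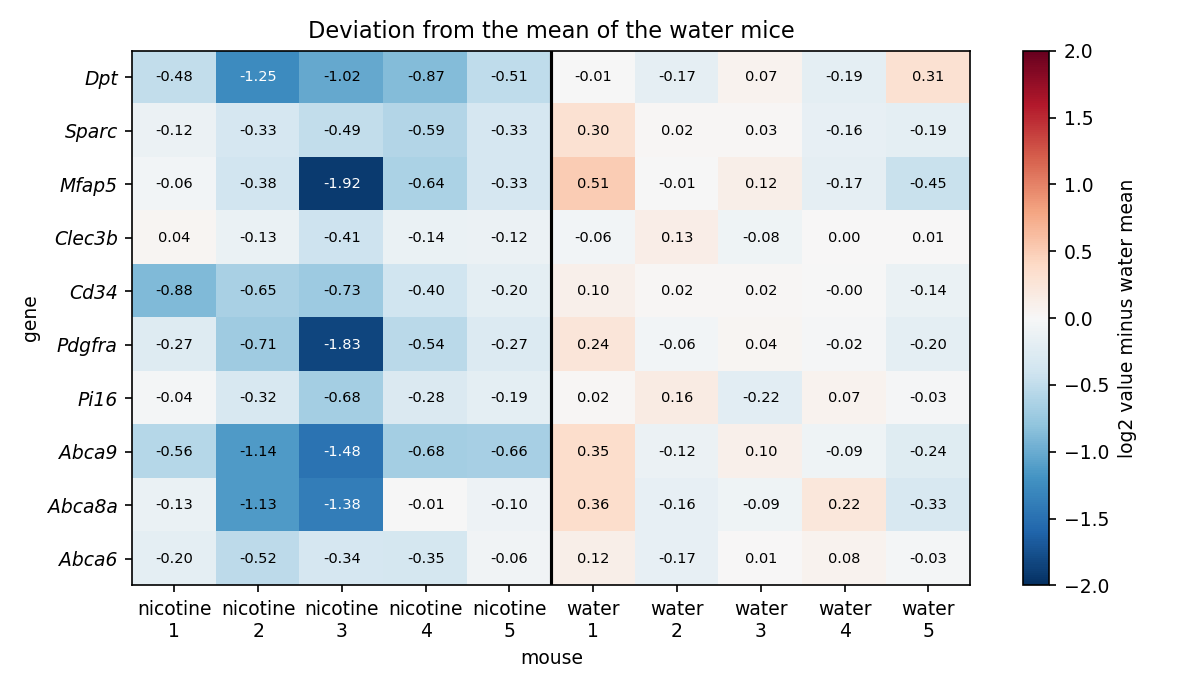
Log2 value of each gene (rows) in each mouse (columns, nicotine left of water) minus the mean of the 5 water mice; blue is lower and red higher. Nicotine 3 reaches -1.92 in Mfap5 and -1.83 in Pdgfra, nicotine 2 is lowest in Dpt at -1.25, and nicotine 1 is lowest in Cd34 at -0.88.

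Secretory genes of the seminal vesicle, a gland beside the prostate, were uneven between groups: they averaged above 10 log2 units in nicotine 5 and in water 3, 4 and 5 (rich mice), and below it in the other 6 (poor mice). Dpt was 9.19 in nicotine 5, against 9.50 to 10.003 in the rich water mice, and 8.44 to 9.21 in the poor nicotine mice, against 9.52 to 9.69 in the poor water mice. Nicotine 5 was closer to the rich water mice in Pdgfra, at 8.92 against a lowest value of 8.99, in Cd34, at 9.41 against 9.47, and in Abca6, at 6.33 against 6.36. In Mfap5 it lay above the lowest rich water mouse, at 9.17 against 9.05. The same held for Pi16, at 7.64 against 7.61, and for Abca8a, at 7.504 against 7.27. In Clec3b the highest poor nicotine mouse was above the lowest poor water mouse, at 7.62 against 7.52. In 6 of the 10 genes the nicotine mice lay below every water mouse of the same kind, rich or poor. Dpt, Cd34, Abca9 and Pdgfra had to be among them, as their groups did not overlap over all mice. The rich kind held only 1 nicotine mouse, and the share of all genes was not counted, so nothing is read from this count. The part of seminal vesicle RNA in the differences was not tested. With the seminal vesicle mean as a covariate the mean difference of the 10 genes was -0.50.

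Other genes of adventitial fibroblasts were lower on average too. Of 33 listed, 30 had values and were tested; 27 had a negative difference, 0 passed the test, and the median was -0.40 with 10 mice and -0.22 without nicotine 1 and 3. Their list mean ran from 7.51 to 8.54 in nicotine mice and 8.62 to 8.83 in water mice, without overlap. In 3 of the 30 the groups did not overlap, all lower in nicotine mice, beside 2.88% of all genes, and in 9 without nicotine 1 and 3, beside 6.47%. This list too was chosen with earlier results of these data known, so nothing is read from these counts. The members with the smallest p were the matrix gene Fndc1 (-0.52 ± 0.15 SE), Cmah, which encodes a sialic acid hydroxylase (-0.43 ± 0.17), the fibulin gene Efemp1 (-1.12 ± 0.44) and the ferritin receptor gene Scara5 (-0.36 ± 0.14). Leaving out nicotine 1 and 3, Fndc1 was at -0.56 ± 0.14, Cmah at -0.23 ± 0.13, Efemp1 at -0.42 ± 0.10 and Scara5 at -0.26 ± 0.13.

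General fibroblast genes, among them collagens and other matrix genes, were also lower on average. All 20 had a negative difference with 10 mice and 19 without nicotine 1 and 3, 0 passed the test, and the median was -0.32 with 10 mice and -0.34 without nicotine 1 and 3. In 3 of the 20 the groups did not overlap, all lower in nicotine mice, beside 2.88% of all genes, and in 8 without nicotine 1 and 3, beside 6.47%. Nothing is read from these counts either, as the list was chosen in the same way. The gelatinase gene Mmp2 differed by -0.58 ± 0.15 (SE), the proteoglycan gene Lum by -1.42 ± 0.42, and the collagen genes Col6a1 and Col3a1 by -0.29 ± 0.10 and -0.50 ± 0.17. Leaving out nicotine 1 and 3, Mmp2 was at -0.57 ± 0.11, Lum at -0.84 ± 0.18, Col6a1 at -0.32 ± 0.08 and Col3a1 at -0.55 ± 0.18. The list mean ran from 8.65 to 9.31 in nicotine mice and 9.21 to 9.68 in water mice.

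**Figure D4:**
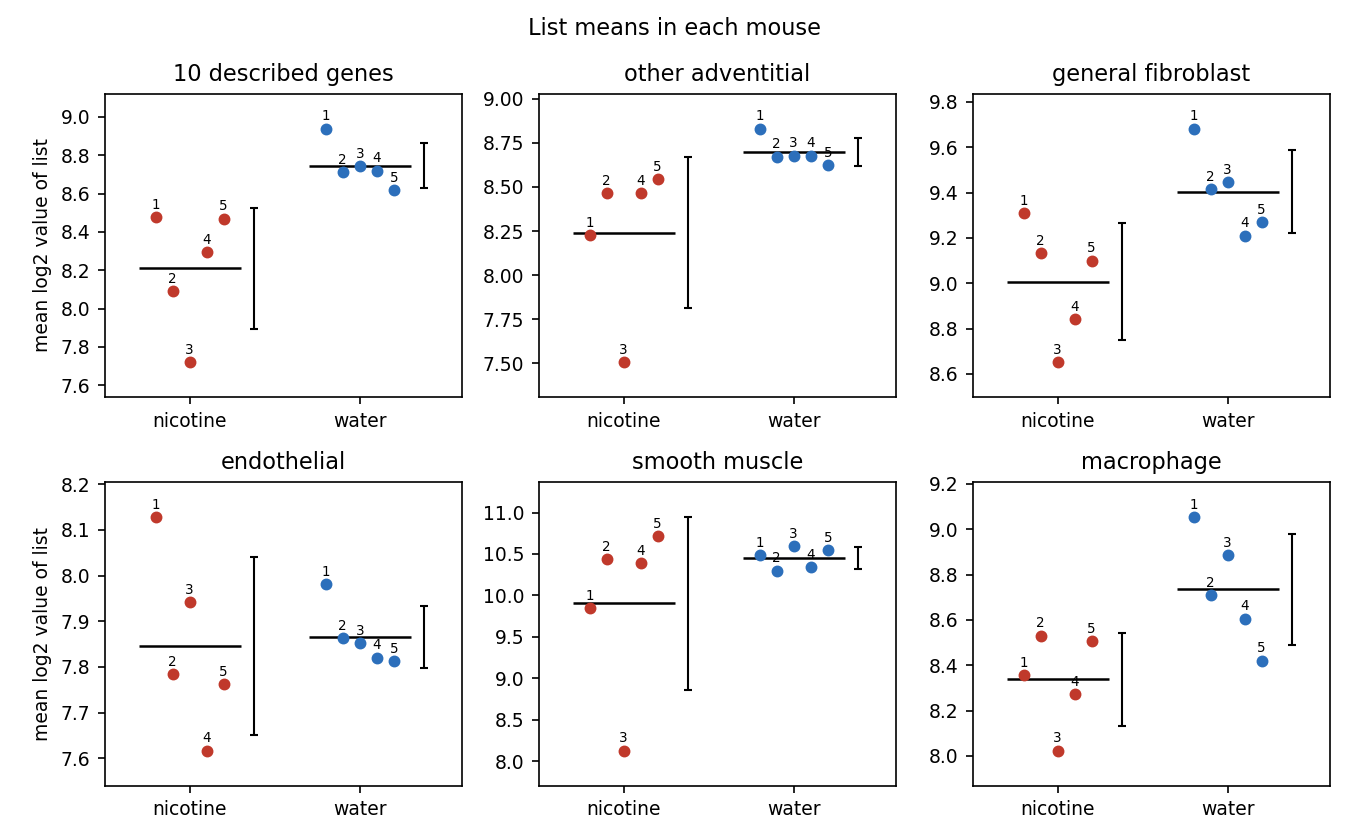
Mean log2 value of 6 gene lists in each mouse (vertical axis, range differs by panel), nicotine in red left of water in blue, with mouse numbers, mean lines and SD bars. The 10 described genes and the other adventitial genes do not overlap between groups, and general fibroblast and macrophage means overlap in part. Smooth muscle is lowest in nicotine 3 and is below all water mice in nicotine 1 as well.

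Set against the general fibroblast genes of the same mouse, the 10 genes differed less. Their mean minus the general fibroblast mean was -0.83, -1.04, -0.93, -0.55 and -0.63 in nicotine mice 1 to 5, against -0.74, -0.70, -0.70, -0.49 and -0.65 in water mice 1 to 5. Nicotine 1, 2 and 3 lay below all water mice and nicotine 4 and 5 within their range. The difference between the groups in this measure was -0.14 log2 units, and -0.08 without nicotine 1 and 3. With the general fibroblast mean as a covariate, the mean difference of the 10 genes was -0.22 log2 units in place of -0.54. Cd34 was at -0.56 ± 0.18 (SE), Dpt at -0.68 ± 0.23 and Abca9 at -0.50 ± 0.20. Sparc was at -0.07 ± 0.09, Pdgfra at -0.09 ± 0.27 and Pi16 at -0.10 ± 0.15, while Mfap5 turned to 0.25 ± 0.22. The covariate was measured on the same arrays and differs between the groups, so these values describe how the genes relate to the list.

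**Figure D5:**
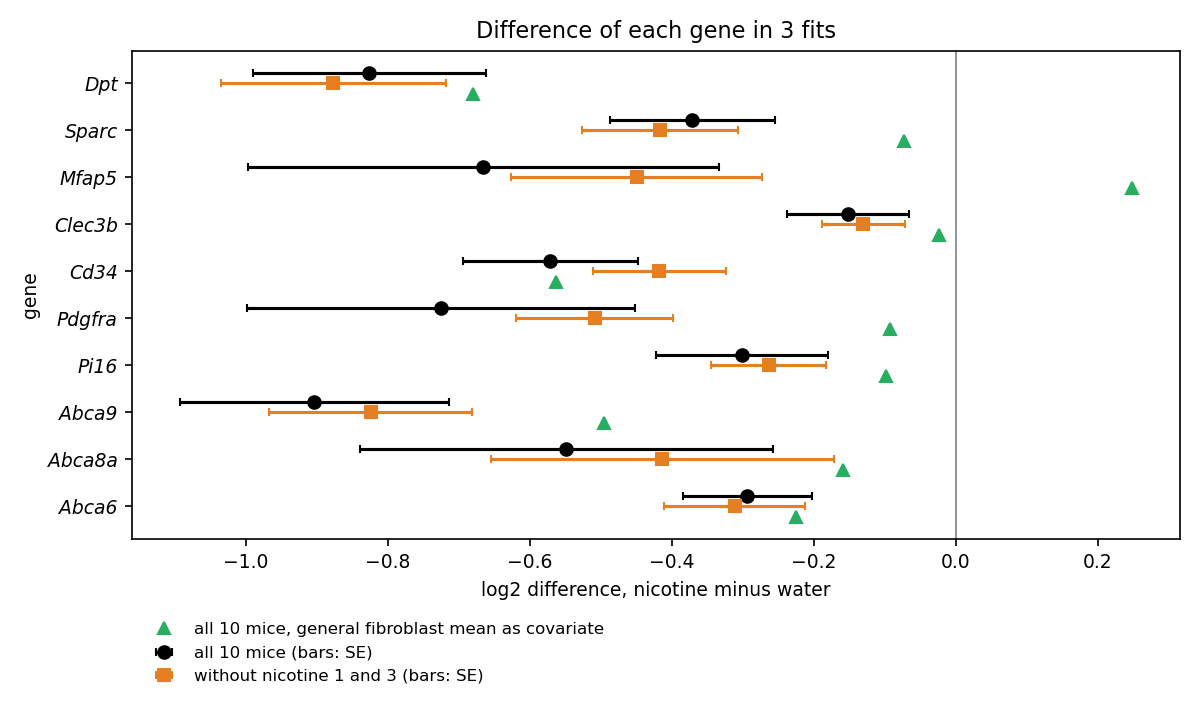
Log2 difference, nicotine minus water (horizontal axis), of each gene with all 10 mice (black circles, SE bars), without nicotine 1 and 3 (orange squares, SE bars) and with the general fibroblast mean as a covariate (green triangles). Dpt, Cd34 and Abca9 stay at or below -0.42 in all 3, Sparc, Clec3b and Pdgfra are between -0.09 and -0.02 with the covariate, and Mfap5 is above 0.

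Partners of the individual genes were examined by family. Beside Mfap5, 16 of 17 tested elastic fibre and microfibril genes had a negative difference, with a median of -0.13, and 0 passed the test. The crosslinking enzyme gene Lox differed by -0.90 ± 0.37 (SE), the fibulin gene Fbln2 by -0.37 ± 0.16 and the latent TGF-beta binding protein gene Ltbp4 by -0.24 ± 0.12. Efemp1, given above, is on this list too. Leaving out nicotine 1 and 3, Lox was at -0.71 ± 0.34, Fbln2 at -0.45 ± 0.13 and Ltbp4 at -0.16 ± 0.09. Lox and Fbln2 are also on the general fibroblast list, as is Fstl1. Beside Pdgfra, the 14 PDGF ligands and receptors, listed with the related VEGF ligands and receptors, Kit and Csf1r, had a median of 0.04 with 6 negative, and of -0.05 with 8 negative without nicotine 1 and 3. With 10 mice 0 passed the test. Csf1r, the macrophage growth factor receptor gene (-0.79 ± 0.19 SE), Pdgfrl (-0.33 ± 0.13) and the ligand genes Pdgfd (-1.38 ± 0.67) and Pdgfc (-0.68 ± 0.38) had the smallest p. Pdgfd was 6.34 in nicotine 3 and 8.27 in nicotine 1, and its difference was -0.28 ± 0.07 without them. Pdgfc was then at -0.06 ± 0.08, Csf1r at -0.67 ± 0.16 and Pdgfrl at -0.35 ± 0.14.

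Beside Sparc, 3 of 6 tested relatives were negative and 0 passed the test. Sparcl1 differed by -0.31 ± 0.15 (SE) and Fstl1 by -0.31 ± 0.15, while Spock1 (0.87 ± 0.47) and Smoc1 (0.37 ± 0.26) were higher on average, at 0.04 ± 0.07 and 0.04 ± 0.11 without nicotine 1 and 3. Sparcl1 was then at -0.18 ± 0.10 and Fstl1 at -0.35 ± 0.15. The Cd34 relatives Podxl (-0.07 ± 0.27) and Podxl2 (0.74 ± 0.38) did not pass either, and without nicotine 1 and 3 Podxl turned to 0.19 ± 0.15 and Podxl2 was at 0.08 ± 0.08. Beside Pi16, 4 of 6 tested CAP genes were negative and 0 passed; Glipr1 differed by -0.43 ± 0.15, Crispld2 by -0.22 ± 0.14, Crispld1 by -0.12 ± 0.08 and R3hdml by 0.45 ± 0.34. Leaving out nicotine 1 and 3, Glipr1 was at -0.23 ± 0.11, Crispld2 at -0.07 ± 0.09, Crispld1 at -0.03 ± 0.06 and R3hdml at 0.14 ± 0.07. Fibroblast transcription factors had a median of -0.06 over 17 tested genes, 13 negative and 0 past the test, with Twist2 at -0.29 ± 0.13, Prrx1 at -0.71 ± 0.33, Nr2f2 at -0.55 ± 0.27 and Meox1 at 0.17 ± 0.09. Leaving out nicotine 1 and 3, the median was -0.03, with Twist2 at -0.11 ± 0.07, Prrx1 at -0.24 ± 0.12, Nr2f2 at -0.09 ± 0.08 and Meox1 at 0.15 ± 0.09.

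Markers of other cell types also differed between the mice, and their part in the differences of the 10 genes was not tested. For each gene the difference with its SE is given with 10 mice, and in brackets without nicotine 1 and 3. Macrophage markers were negative in 13 of 13 tested genes with 10 mice and 11 without nicotine 1 and 3, with medians of -0.30 and -0.30 in these sets of mice, and their list mean ran from 8.02 to 8.53 in nicotine mice and 8.42 to 9.05 in water mice. The genes with the smallest p were Adgre1 at -0.89 ± 0.21 (-0.68 ± 0.18), Csf1r at -0.79 ± 0.19 (-0.67 ± 0.16) and Cd163 at -0.30 ± 0.07 (-0.24 ± 0.06). Mast cell markers were negative in 3 of 5 tested genes and positive in 2, with differences up to 1.16. Their list mean ran from 6.39 to 6.61 in nicotine mice and 6.56 to 6.69 in water mice. The genes with the smallest p were Mcpt4 at -0.57 ± 0.14 (-0.37 ± 0.09), Cpa3 at -0.98 ± 0.30 (-0.50 ± 0.16) and Tpsb2 at -0.18 ± 0.08 (-0.11 ± 0.07). The macrophage and mast cell genes named here were lower in both sets of mice. Proliferation genes were positive in 16 of 16, with a list mean of 9.85 to 11.14 in nicotine mice and 9.50 to 9.69 in water mice and Tk1 at 0.39 ± 0.07 (0.37 ± 0.06), Mcm5 at 0.47 ± 0.11 (0.38 ± 0.09) and Ccnb2 at 0.92 ± 0.22 (0.56 ± 0.08).

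Smooth muscle markers were negative in 15 of 15, with a median of -0.52 that was 0.04 without nicotine 1 and 3, and a list mean of 8.13 to 10.72 in nicotine mice and 10.30 to 10.59 in water mice. Their genes were Cald1 at -0.38 ± 0.24 (-0.01 ± 0.13), Pgm5 at -0.63 ± 0.41 (0.02 ± 0.09) and Mylk at -0.61 ± 0.41 (-0.03 ± 0.10). Myofibroblast genes had medians of -0.45 and 0.10 over 10 tested genes. Of these, Thbs2 at -0.38 ± 0.19 (-0.44 ± 0.17) and Cthrc1 at -0.34 ± 0.17 (-0.34 ± 0.19) were negative in both sets of mice, while Tagln at -0.88 ± 0.65 (0.11 ± 0.09) and Myl9 at -0.99 ± 0.74 (0.16 ± 0.09) turned. Pericyte markers had a mean of 7.75 to 8.33 in nicotine mice and 7.82 to 7.88 in water mice, with Rgs5 at 0.60 ± 0.43 (-0.12 ± 0.05), Kcnj8 at 0.11 ± 0.09 (0.18 ± 0.08) and Notch3 at 0.11 ± 0.09 (0.10 ± 0.06). Skeletal muscle markers averaged 9.94 in nicotine 1 and 7.17 to 7.33 in water mice, with Neb at 0.64 ± 0.46 (-0.00 ± 0.08), Myl1 at 1.11 ± 0.87 (0.10 ± 0.14) and Mb at 0.38 ± 0.30 (0.10 ± 0.06). The signs of Pgm5, Rgs5 and Neb turned without nicotine 1 and 3.

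Schwann cell markers had a mean of 8.07 to 8.55 in nicotine mice and 8.41 to 8.61 in water mice, with Ncam1 at 0.77 ± 0.50 (-0.09 ± 0.10), Erbb3 at -0.98 ± 0.71 (0.02 ± 0.09) and Mal at -0.48 ± 0.36 (0.10 ± 0.12). Mesothelial markers had a mean of 7.08 to 7.34 in nicotine mice and 7.26 to 7.43 in water mice, with Msln at -0.18 ± 0.09 (-0.12 ± 0.08), Wt1 at -0.17 ± 0.09 (-0.08 ± 0.07) and Krt19 at -1.33 ± 1.10 (0.07 ± 0.06). Adipocyte markers had a mean of 7.06 to 8.68 in nicotine mice and 7.61 to 7.98 in water mice, with Pck1 at 0.28 ± 0.14 (0.42 ± 0.13), Pparg at -0.37 ± 0.24 (0.02 ± 0.08) and Plin1 at 0.15 ± 0.14 (0.26 ± 0.13). The signs of Ncam1, Erbb3, Mal, Krt19 and Pparg turned without nicotine 1 and 3. Basal epithelial markers had a mean of 7.49 to 8.33 in nicotine mice and 7.94 to 8.09 in water mice, with Krt5 at -0.32 ± 0.26 (-0.09 ± 0.21), Krt17 at 0.28 ± 0.24 (0.58 ± 0.19) and Krt14 at -0.22 ± 0.20 (0.02 ± 0.15). Among luminal secretory markers the genes were Fkbp5 at -0.52 ± 0.25 (-0.26 ± 0.15), Spink1 at -1.79 ± 1.03 (-0.40 ± 0.44) and Hoxb13 at -0.35 ± 0.23 (0.02 ± 0.11), and among neuroendocrine markers Chga at 1.74 ± 0.92 (0.09 ± 0.12), Uchl1 at 1.27 ± 0.69 (0.13 ± 0.29) and Syp at 1.02 ± 0.58 (0.02 ± 0.09). Seminal vesicle genes gave Spinkl at -2.18 ± 1.54 (-1.15 ± 1.61), Sva at -2.62 ± 1.87 (-1.14 ± 1.89) and Svs3b at -2.34 ± 1.68 (-1.07 ± 1.70), with wide errors in both sets. Krt14 and Hoxb13 also turned. With 10 mice, 0 genes of these lists passed the test.

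The genes most like the mean of the 10 genes across all arrays, among 14205 other named genes, were Gask1b (Pearson's r = 0.97, n = 10 arrays), the serine protease gene Htra3 (0.96), the laminin chain gene Lama2 (0.96), Tek (0.95), the dipeptidase gene Dpep1 (0.94), Slc16a9 (0.94), the sodium channel gene Scn7a (0.94), the thrombomodulin gene Thbd (0.94), Ppp1r3c (0.94) and the heme synthesis gene Alas2 (0.93). Across the 8 arrays without nicotine 1 and 3 they were Slc43a3 (0.97), Pnpla8, Rftn2, the fibulin gene Fbln1 (0.97), Tmem263, Plxnc1, Ntrk2, Htra3 (0.96), the laminin chain gene Lama4 (0.95) and Chst15. Only Htra3 was in both sets of 10. Its difference was -0.48 with 10 mice and -0.44 without nicotine 1 and 3. The correlations include the difference between the groups and are a description of these arrays.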

How the data were processed

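Per the labels' protocols, total RNA was extracted with Trizol, amplified as whole transcripts and, after biotin labelling, run on Affymetrix arrays in 1 colour. The authors deposited 1 table of log2 values for 35556 probe sets on 10 arrays, and how they were background-corrected and normalized is unstated in the sources used here. The scale was read as log2 from the range of 3.59 to 14.1, with array medians from 7.50 to 7.57. Separate numbers in the labels were taken as separate mice. Precision is limited by having 5 arrays a group, and batches were not checked for want of scan dates among the sources used here.

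Gene symbols came from GEO's annotation of the platform, possibly outdated: 21789 probe sets had 1 symbol, 1621 several and 12146 were unnamed. Per gene, the single-symbol probe set with the highest mean was kept. Nicotine was set against water with limma 3.58.1 in R 4.3.3 (lmFit and eBayes, two-sided, Benjamini-Hochberg adjustment over 14953 genes, threshold 0.05). The fit was tried on simulated independent genes with the same SD in both groups. That trial does not cover the unequal spread of the groups on these arrays. SEs are those of the moderated fit. The 10 genes and all lists were chosen with earlier results of these data known. Named beside them were, per list, the members with the smallest unadjusted p (4, or 3 for other cell types), the other ABCA genes and the 10 genes with the highest correlation with the mean of the 10. Some members of the lists are not analysed here.

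Mouse numbers 1 to 5 occur in both groups, but 1 of 5 same-numbered pairs had deviations from the group means correlated above 0.1, so mice were not paired. Promoter sequences are from RefSeq, GRCm38.p6. Alternatives were other filters, probe set rules and normalizations, a trended and robust fit, array weights, a replicate block, covariates and leaving out mice.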

Additional observations from a re-analysis of the deposited data

Results flagged for a closer look

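Of 26 groups of 5 mice checked (the 10 genes, their mean and both fibroblast lists, in nicotine and in water mice), 2 held a mouse far from the other 4, where chance gives about 1 in 20. Pdgfra in nicotine 3 was at 7.353 log2 units, far below the other nicotine mice, and the Pdgfra difference was -0.51 without nicotine 1 and 3 in place of -0.72. The mean of the other adventitial fibroblast genes in water 1 was 8.832, above the other water mice.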

How the results depend on the processing

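By limma, 0 genes passed an adjusted p of 0.05 under 21 of 22 alternatives, including leaving out each mouse in turn (0 to 0) and the replicate block (0). With array weights 1096 genes passed, 671 lower (4.49% of those tested) and 425 higher (2.84%), and the cause was not tested. Among nicotine mice the weight was 4.67 for nicotine 5, 1.84 for nicotine 2 and 1.40 for nicotine 4. It was 0.11 for nicotine 1 and 0.03 for nicotine 3, so this fit leaned most on nicotine 5. The mean difference of the 10 genes was -0.54 with the replicate block and ran from -0.60 to -0.41 when single mice were left out, the smallest in size without nicotine 3. Without nicotine 3 alone 4 genes moved by over 1.5 times: Mfap5 to -0.35 ± 0.19, Clec3b to -0.09 ± 0.06, Pdgfra to -0.45 ± 0.12 and Abca8a to -0.34 ± 0.24 (SE). The mean difference was -0.39 with array weights and -0.22 with the general fibroblast mean as a covariate, and under it Mfap5 reversed to 0.25. The count of genes without overlap ran from 4 to 6 when single mice were left out and was 6 without nicotine 1 and 3, where 6.47% of all genes showed it. Leaving out mice can only keep or raise this count, so the range does not measure its stability. The share of all genes was not counted for single mice left out. Of 220 values of single genes under alternatives, 213 moved by less than 1 SD between mice. This SD pools both groups and so includes the spread of the nicotine mice, which was wider in most genes. As each gene had 1 probe set, the probe set rules left these values as they were. The filters, the trended fit and the block could not change them either, so the 213 include values that could not move. The trended fit, array weights, the block and the covariates give no separate count of overlap.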
